A study of Mus musculus with 28 samples.

Results

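The contacts described here are those of the Gata6 promoter in mouse anterior neural progenitor cells (AntNPC), in 1 library from cells that carry the transcription factor binding sites (TFBS) of the poised enhancer (PE) of Sox1 and 1 library from wild type (WT) cells. They are 2 of the 13 libraries with a file, out of 28 samples that the series lists, and were chosen by their sample titles. Both come from the embryonic stem cell line E14Tg2a, an established line, differentiated without serum or LIF and with a WNT inhibitor until day 5. The TFBS genotype is a knock-in of PE Sox1 TFBS in the topological domain (TAD) of Gata6, and the WT cells have no insert. The sources used here do not state where in the domain the insert lies or whether the knock-in cells are 1 clone. For the spread between libraries, the other Gata6 promoter libraries of AntNPC were set beside them: 1 with the CpG island (CGI) of PE Sox1 and 1 with both parts (TFBS+CGI). Each condition has 1 library and no replicate, so every difference below is between libraries, no test between conditions was possible, and no p-value is given.

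Gata6 encodes a zinc-finger transcription factor of endoderm and heart, and Sox1 encodes a transcription factor of early neural tissue. A poised enhancer is an element that is bound but inactive in pluripotent cells and acts in the lineage where its target gene is used. Enhancers usually reach promoters within the same topological domain, where contacts are more frequent than across its borders. In 4C-seq, chromatin is cut and religated, and whatever was ligated to a chosen restriction fragment, called the viewpoint, is amplified by inverse PCR and sequenced. The number of reads per fragment is then read as contact frequency, which falls with distance along the chromosome.

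The viewpoint was the fragment with most reads in each library, chromosome 18 from 11053305 to 11053963 (mm10), 659 bp long and 0.795 kb past the annotated start of Gata6. It lies inside the annotated span of Gata6, which runs from 11052510 to 11085636. Shares are given as percent of local reads, which are the reads within 1 Mb of the viewpoint with 10 kb on each side left out. The side of lower coordinates is called left and that of higher coordinates, into which the Gata6 span extends, right. Intervals are 95% binomial (Wilson) intervals for shares and exact conditional intervals for log2 ratios. Reads were copied by PCR without molecular identifiers, so the intervals cover counting error only and are narrower than the true error.

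The libraries differed in depth and in how much of it lay away from the viewpoint. TFBS had 3000576 reads in all and WT 6874974. The viewpoint fragment itself took 79.3% of reads in TFBS and 90.7% in WT. Local reads were 193257 in TFBS, 6.44% of the library, and 110891 in WT, 1.61%. In CGI and TFBS+CGI local reads were 2.68% and 2.10% of the library, so TFBS stood apart from the other 3 by that measure. In total reads and in the part of the viewpoint the libraries fell into pairs: the viewpoint took 78.1% of reads in CGI and 91.0% in TFBS+CGI, and total reads were 2523331 in CGI and 7429563 in TFBS+CGI. TFBS thus resembled CGI in depth and in the viewpoint's part of the reads, and WT resembled TFBS+CGI. The labels give no batch, so genotype and library preparation cannot be told apart.

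Local reads were spread over many more fragments in TFBS. Reads lay on 2233 local fragments in TFBS and 1090 in WT. With TFBS thinned to the 110891 local reads of WT, 2111 fragments would still be read in TFBS, 1.94 times the WT number, against 2.05 times without thinning. The ratio depended on the draw: with both libraries thinned to 10000 local reads it was 3.13, and at 50000 it was 2.33. The 10 tallest fragments held 5.03% of local reads in TFBS and 13.6% in WT. The reads of 302 fragments made up 50% of local reads in TFBS, and those of 63 did so in WT. Numbers of effective fragments (the inverse of the summed squared shares) were 758 in TFBS and 170 in WT, against 262 in CGI and 280 in TFBS+CGI.

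Most WT fragments had few reads. Of the 1090 WT fragments, 700 had 1 to 9 reads and together held 1.47% of WT local reads. Of these 700 fragments, 640 (91.4%) had at least 10 reads in TFBS, with a median of 126.5 TFBS reads. Of the 390 WT fragments with at least 10 reads, 198 (50.8%) had at least 10 reads in TFBS, with a median of 10. Fragments with few WT reads thus had more TFBS reads, by their median, than fragments with many WT reads. Over the 998 fragments read in both, Spearman's rho of the read numbers was -0.20, and over the 198 with at least 10 reads in both it was 0.11. Fragments of 1 chromosome share sequence and library, and these values are descriptions. Whether reads were carried over between libraries was not tested. Fragments of at least 0.00902% of local reads, the share of 10 WT reads, numbered 1523 in TFBS and 390 in WT, and counting each of these fragments once gives a second measure, chosen after the data were seen, that leaves out the low counts.

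**Figure D1:**
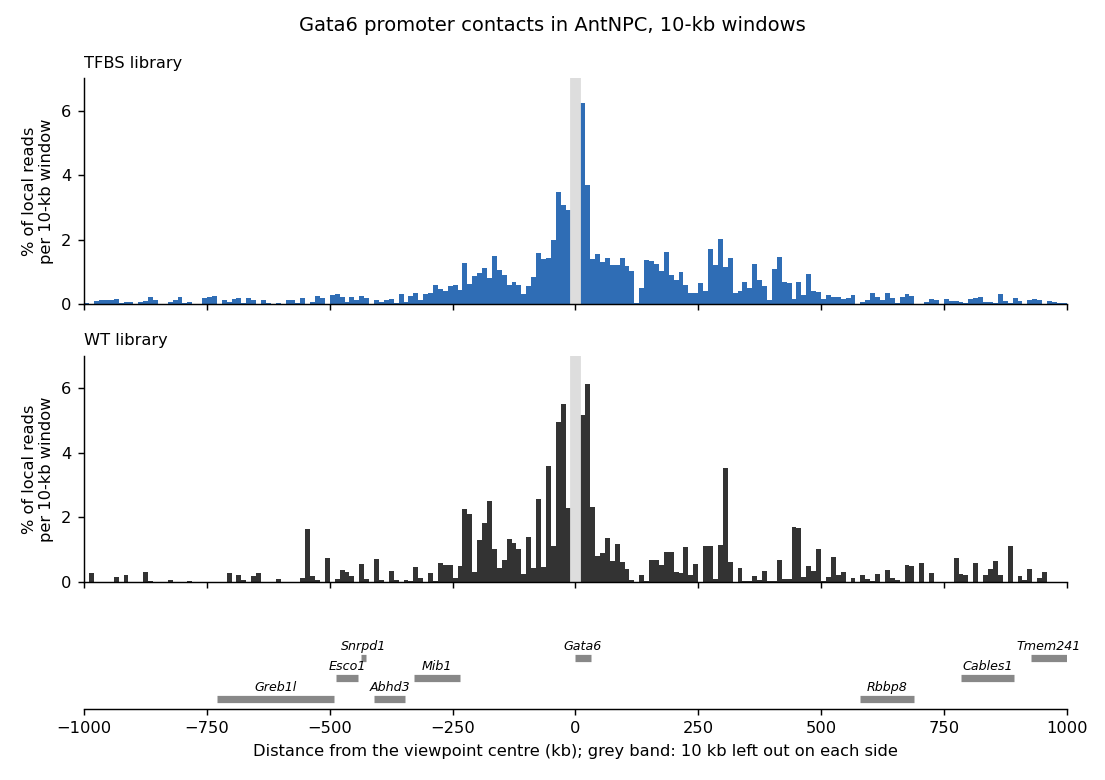
Share of local reads in 10-kb windows (y axis, percent) against distance from the viewpoint centre (x axis, kb) in the TFBS library (top) and the WT library (middle), with 9 protein-coding genes of the region below. Tallest windows reach 6.23% in TFBS and 6.15% in WT. Summed from 100 to 200 kb on the right, the share is 10.3% in TFBS and 4.41% in WT.

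The balance of the sides differed between the libraries. The left side held 40.4% of local reads in TFBS (40.2% to 40.6%) and 49.2% in WT (48.9% to 49.5%), a log2 ratio of -0.28 (-0.30 to -0.27). The right side held 59.6% in TFBS and 50.8% in WT. In the other libraries the left side held 40.2% in CGI and 48.2% in TFBS+CGI. TFBS therefore lay with CGI and WT with TFBS+CGI, the same pairs as in depth and in the share of the viewpoint, whose part in this difference was not tested. With fragments above the fixed share counted once each, the log2 ratio of the left side was -0.12 (-0.36 to 0.13). The difference in sides was thus within the counting error of fragment numbers by that measure. With all fragments counted at matched depth it was -0.03.

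The right-side excess of TFBS lay between 50 and 500 kb. From 10 to 25 kb on the right, the share was 8.16% in TFBS and 9.35% in WT, and from 25 to 50 kb it was 4.71% in TFBS and 5.08% in WT. From 50 to 100 kb it was 6.60% in TFBS and 4.68% in WT. The step from 100 to 200 kb differed most, at 10.3% in TFBS (10.1% to 10.4%) and 4.41% in WT (4.29% to 4.53%), 2.33 times as much, or 1.22 on the log2 scale (1.18 to 1.27). That step held 6.98% in CGI and 4.78% in TFBS+CGI. From 200 to 500 kb the right side held 23.0% in TFBS and 17.4% in WT. Beyond 500 kb the order turned, with 6.80% in TFBS and 9.89% in WT.

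On the left no distance step was higher in TFBS. The share from 10 to 25 kb was 4.32% in TFBS and 5.95% in WT, and from 50 to 100 kb it was 5.84% in TFBS and 8.43% in WT. From 100 to 200 kb it was 8.54% in TFBS and 11.5% in WT. From 500 to 1000 kb the shares were 4.78% in TFBS and 4.89% in WT, a difference within counting error (log2 ratio -0.03, -0.08 to 0.02).

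Over 100 to 500 kb on the right, the share was 33.3% in TFBS, 33.7% in CGI, 21.6% in TFBS+CGI and 21.8% in WT. This range again separated the libraries into the pairs named above. Over the same range on the left, the share was 18.3% in TFBS, 19.0% in CGI, 23.6% in TFBS+CGI and 22.0% in WT.

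**Figure D2:**
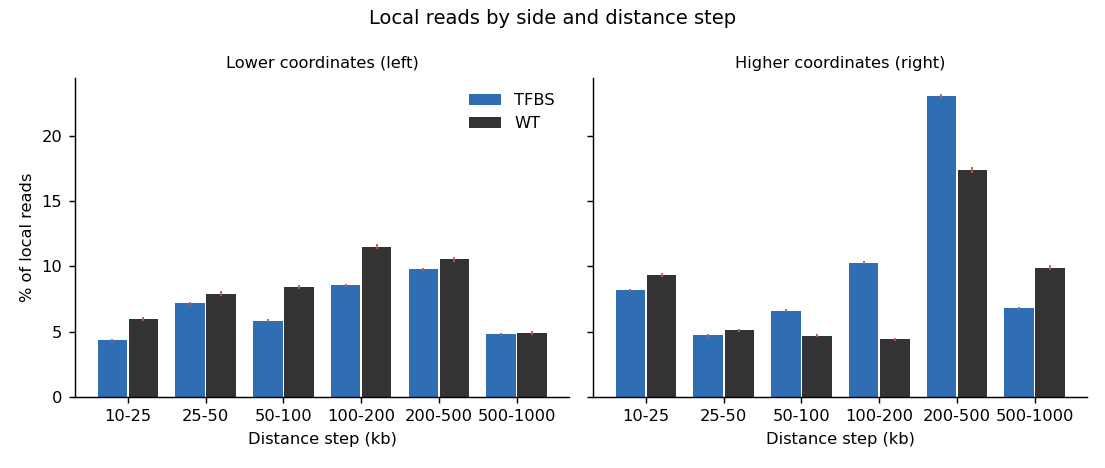
Percent of local reads (y axis) in 6 distance steps (x axis, kb) on the left and right of the viewpoint, TFBS beside WT; red bars are 95% Wilson intervals for counting error. On the right, the step from 100 to 200 kb holds 10.3% in TFBS and 4.41% in WT, and on the left each TFBS bar is no higher than its WT bar.

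The fall of contacts with distance was alike in slope. Over the 6 steps, the slope of log2 share per kb on log2 distance was -0.91 in TFBS and -0.97 in WT on the left, and -0.82 in TFBS and -0.83 in WT on the right. CGI had slopes of -0.91 and -0.77 on the left and right, and TFBS+CGI had -0.78 and -1.04. On the left the TFBS slope was nearest to that of CGI, and on the right nearest to that of WT. The distance within which 50% of the local reads lay was 176 kb in TFBS and 179 kb in WT, counted over both sides. By side it was 149 kb in TFBS and 130 kb in WT on the left, and 200.2 kb in TFBS and 242 kb in WT on the right. The near share, from 10 to 100 kb on both sides, was 36.8% in TFBS (36.6% to 37.0%) and 41.4% in WT (41.1% to 41.7%), a log2 ratio of -0.17.

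The windows next to the promoter were the tallest in both libraries. The window from 10 to 20 kb on the right, in the Gata6 gene body, was the tallest in TFBS, at 6.23% in TFBS and 5.17% in WT. The next window, from 20 to 30 kb, was the tallest in WT, at 3.69% in TFBS and 6.15% in WT. On the left, the window from 30 to 40 kb held 3.48% in TFBS and 4.96% in WT, and that from 20 to 30 kb held 3.08% in TFBS and 5.50% in WT. The window from 10 to 20 kb on the left, which overlaps the antisense transcript gene Gata6os, held 2.93% in TFBS and 2.30% in WT. The window from 50 to 60 kb on the left was among the 5 tallest in WT only. It held 1.45% in TFBS and 3.59% in WT, and 1 fragment had 44.1% of its WT reads.

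Of 198 windows of 10 kb, 186 had at least 50 reads in TFBS and WT together. Of these, 82 were at least 2-fold higher in TFBS (44.1%) and 37 at least 2-fold lower (19.9%), 64% either way. In the other pairs of the 4 libraries, which share libraries, 60% of windows were past 2-fold for TFBS and CGI, 54.8% for TFBS and TFBS+CGI, 66.2% for WT and CGI, 68.9% for WT and TFBS+CGI and 67.3% for CGI and TFBS+CGI, so the TFBS and WT libraries lay within the range of the other pairs at this width. Single fragments weighed more in WT windows: the tallest fragment held a median of 37.2% of the reads of a window in TFBS and 76.7% in WT. WT was the lowest of the 4 libraries in 50 of the 82 higher windows, and TFBS was the highest of the 4 in 38. WT was the highest of the 4 in 29 of the 37 lower windows, and TFBS was the lowest in 7. Over all 186 windows, WT was the lowest in 59 and the highest in 44, and TFBS the highest in 53 and the lowest in 19. Since the windows were picked for a gap between TFBS and WT, extremes of these libraries are favoured in both lists.

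By distance, 21 of 40 windows were higher and 5 lower on the right from 100 to 500 kb, with a median log2 ratio of 1.05 (SD between windows 2.39). Over all windows compared, 82 of 186 (44.1%) were higher and 37 (19.9%) lower. On the left over the same range, 12 of 39 were higher and 7 lower, with a median of -0.18 (SD 2.72). From 10 to 100 kb, 1 of 9 windows was higher and 0 lower on the right, and 2 were higher and 2 lower of 9 on the left. From 500 to 1000 kb on the left, 27 of 42 were higher and 9 lower, but the median WT window there held 0.00361% of local reads, about the level of 4 reads, so these ratios rest on windows that WT barely read. From 500 to 1000 kb on the right, 19 of 47 were higher and 14 lower, with a median of 0.02 (SD 3.78). Medians and SDs of log2 ratios leave out windows without a WT read, which have no finite ratio. There were 7 of these among the 186 windows, all higher in TFBS and all beyond 500 kb, so medians that leave them out are somewhat low. Over the other windows of the 186 the median log2 ratio was 0.62 (SD 3.27).

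Counting fragments changed these numbers. With fragments above the fixed share counted once each, 12 of the 186 windows were at least 2-fold higher in TFBS and 29 lower. With all fragments counted at matched depth, 14 were higher and 7 lower. A fragment count within 10 kb rests on few fragments, which limits how far it can differ. In both counts, a library without a counted fragment in a window was set at 3 fragments. Windows with no WT fragment above the fixed share could therefore seldom be called higher. Fragments above the fixed share numbered 1523 in TFBS and 390 in WT, so a window with equal numbers in both was called lower. The balance of these calls follows in part from the rule, and no direction is read from it.

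At 50 kb, 9 of 40 windows were at least 2-fold higher in TFBS (22.5%) and 6 lower (15%), 37.5% either way. The other pairs had 22.5% for TFBS and CGI, 27.5% for TFBS and TFBS+CGI, 43.6% for WT and CGI, 53.8% for WT and TFBS+CGI and 55% for CGI and TFBS+CGI. WT was the lowest of the 4 libraries in 8 of the 9 higher windows and the highest in all 6 lower ones, while TFBS was the highest in 3 of the 9 and the lowest in 1 of the 6. Over all 40 windows, WT was the lowest in 11 and the highest in 12, and TFBS the highest in 10 and the lowest in 6. These lists too were picked for a gap between TFBS and WT, which favours extremes of both. The higher windows lay on the right at 110 to 160 kb, 310 to 410 kb (2 windows), 710 to 760 kb and 960 to 1000 kb, and on the left at 560 to 610 kb and 710 to 860 kb (3 windows). The lower windows lay on the right at 760 to 960 kb (4 windows) and on the left at 360 to 410 kb and 510 to 560 kb.

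**Figure D3:**
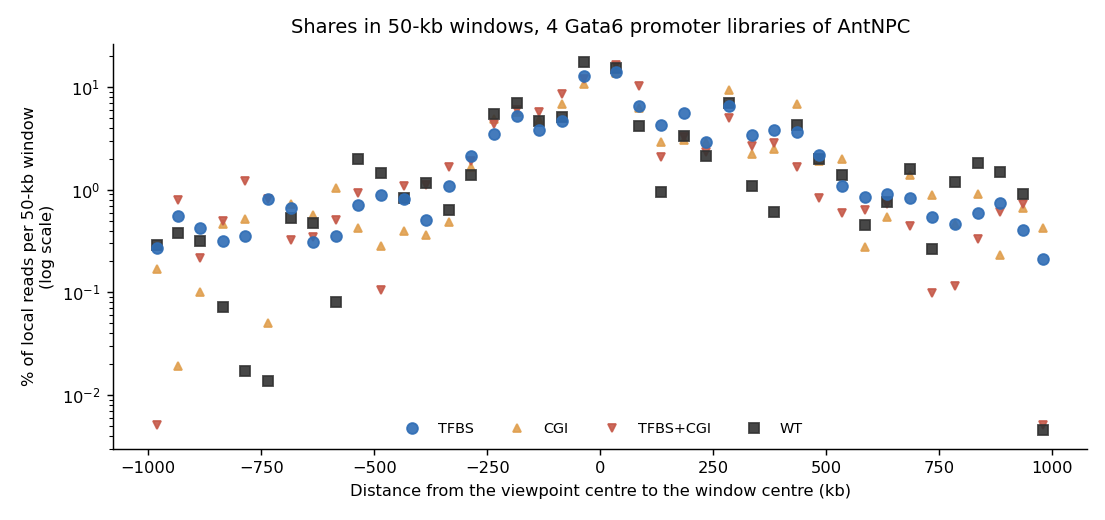
Percent of local reads in 50-kb windows (y axis, log scale) against the distance of the window centre from the viewpoint (x axis, kb) in the TFBS, CGI, TFBS+CGI and WT libraries of AntNPC, 1 point per library and window. At 110 to 160 kb on the right, TFBS stands at 4.27% and WT at 0.960%. WT is the lowest of the 4 in 8 of the 9 windows where TFBS is at least 2-fold above it, and in 11 of all 40 windows.

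The 50-kb window closest to the promoter among those past 2-fold was chromosome 18 from 11163634 to 11213633, 110 to 160 kb to the right, in the stretch without protein-coding genes between Gata6 and Rbbp8. It held 4.27% of local reads in TFBS (4.18% to 4.36%), on 8245 reads and 92 fragments. In WT it held 0.960% (0.904% to 1.02%), on 1064 reads and 47 fragments. The TFBS share was 4.45 times the WT share, a log2 ratio of 2.15 (2.06 to 2.25). CGI held 2.95% and TFBS+CGI 2.08%, so TFBS was highest and WT lowest of the 4. The mirror window on the left, 110 to 160 kb away, held 3.85% in TFBS and 4.65% in WT, a log2 ratio of -0.27.

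Within that window the gap between the libraries was uneven. From 110 to 120 kb the share was 1.02% in TFBS, on 24 fragments, and 0.0451% in WT, on 10 fragments and 50 reads. From 140 to 150 kb it was 1.37% in TFBS, on 27 fragments, and 0.0352% in WT, on 15 fragments and 39 reads. The ratios were 4.50 and 5.28 on the log2 scale at 110 to 120 kb and 140 to 150 kb. From 130 to 140 kb it was 0.498% in TFBS and 0.215% in WT, and from 150 to 160 kb 1.34% in TFBS and 0.663% in WT. From 120 to 130 kb both libraries were low, at 0.0409% in TFBS and 0.00180% in WT, on 2 fragments each.

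Gaps in the windows nearer to the promoter varied. From 100 to 110 kb the share was 1.19% in TFBS and 0.394% in WT, and from 90 to 100 kb 1.45% in TFBS and 0.622% in WT. From 70 to 80 kb it was 1.22% in TFBS and 0.629% in WT. From 80 to 90 kb it was 1.21% in TFBS and 1.18% in WT, and from 60 to 70 kb 1.43% in TFBS and 1.37% in WT, with log2 ratios of 0.03 (-0.07 to 0.13) at 80 to 90 kb and 0.07 (-0.03 to 0.16) at 60 to 70 kb.

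In the window at 110 to 160 kb, the tallest fragment held 5.93% of the reads in TFBS and 32.6% in WT. Fragments above the fixed share numbered 65 of 1523 in TFBS (4.27%) and 8 of 390 in WT (2.05%), a log2 ratio of 1.06 (-0.01 to 2.33). This kept the direction at a smaller size and did not clear counting error. With all fragments at matched depth the log2 ratio was -0.05 (-0.58 to 0.49). By the number of fragments read, the window's part of the total was thus much alike, but most of the WT count rested on few reads. Of its 47 WT fragments, 8 were above the fixed share. Among all local WT fragments with 1 to 9 reads, 93.1% were also read in TFBS. The WT count may therefore follow the fragments of TFBS whatever the contacts. A small ratio by this count does not show that contacts were alike. The same limit holds for every count of all fragments at matched depth given here.

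The stretch from 310 to 410 kb on the right, the pair of adjoining windows past 2-fold, held 7.19% in TFBS and 1.71% in WT, a log2 ratio of 2.08. By fragments above the fixed share it held 117 of 1523 in TFBS and 12 of 390 in WT, a log2 ratio of 1.32 (0.46 to 2.31). By all fragments at matched depth it was 0.34 (-0.08 to 0.77), within counting error. Its window from 310 to 360 kb held 3.39% in TFBS, 2.21% in CGI, 2.67% in TFBS+CGI and 1.09% in WT. The window from 360 to 410 kb held 3.81% in TFBS, 2.48% in CGI, 2.86% in TFBS+CGI and 0.611% in WT. WT was the lowest of the 4 in both windows.

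One of the tallest WT fragments lay beside it. The fragment at 11359412 to 11359501, 306 kb to the right, had 263 reads in TFBS (0.136%) and 1948 in WT (1.76%). It lies just short of the stretch from 310 to 410 kb.

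The 4 lower windows on the right adjoin each other, from 760 to 960 kb, over Cables1 and the near end of Tmem241. Together they held 2.19% in TFBS and 5.42% in WT, a log2 ratio of -1.31. By fragments above the fixed share they held 51 of 1523 in TFBS and 27 of 390 in WT, a log2 ratio of -1.05 (-1.75 to -0.32). By all fragments at matched depth the log2 ratio was -0.09 (-0.62 to 0.44), within counting error. The WT share was the highest of the 4 in each of the 4 windows. The 3 adjoining higher windows on the left, from 710 to 860 kb, held 1.49% in TFBS and 0.102% in WT, on 2881 TFBS reads and 113 WT reads. By fragments above the fixed share the numbers were 30 in TFBS and 2 in WT, a log2 ratio of 1.94 (-0.04 to 5.05), and by all fragments at matched depth it was 0.26 (-0.54 to 1.08). The whole range from 100 to 500 kb on the right joins the distance steps from 100 to 200 kb and from 200 to 500 kb. Both were higher in TFBS by reads. The range was not drawn from window ratios, but it stops where the order turned, so it is not free of selection. Its log2 ratio was 0.61 by reads, 0.44 (0.13 to 0.77) by fragments above the fixed share and 0.06 (-0.13 to 0.25) by all fragments at matched depth. The adjoining stretches were picked because their windows were past 2-fold, so the size of the read ratios follows in part from the choice. The fragments above the fixed share are picked from the same read shares, so their ratios and intervals are favoured by that choice too.

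**Figure D4:**
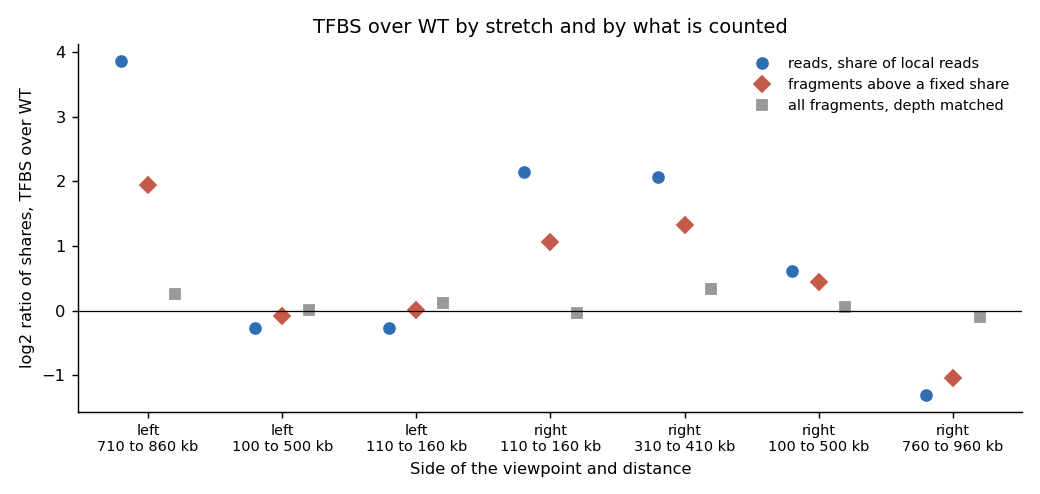
log2 ratio of shares, TFBS over WT (y axis), for 7 stretches (x axis, side and distance) by reads, by fragments above 0.00902% of local reads counted once, and by all fragments at matched depth. At 110 to 160 kb on the right the ratio is 2.15 by reads, 1.06 by fragments above the fixed share and -0.05 by all fragments.

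The longest stretches without a protein-coding gene lie on either side of Gata6, and their shares differed in opposite directions. The stretch between Gata6 and Rbbp8, chromosome 18 from 11085637 to 11633275, held 44.1% of local reads in TFBS, 44.1% in CGI, 35.5% in TFBS+CGI and 29.2% in WT. The stretch between Mib1 and Gata6, from 10818579 to 11052509, held 29.0% in TFBS, 32.4% in CGI, 36.1% in TFBS+CGI and 38.6% in WT. TFBS over WT was 0.60 on the log2 scale in the first of these and -0.42 in the second. TFBS and WT were the opposite extremes of the 4 libraries in both stretches, with CGI beside TFBS in the first. Among 10-kb windows that overlap no protein-coding gene, 44 of 96 were at least 2-fold higher in TFBS and 14 lower, with a median log2 ratio of 0.94 (SD 2.58). Among those that overlap one, 38 of 90 were higher and 23 lower, with a median of 0.09 (SD 3.91). Both medians leave out windows without a WT read.

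Gene spans with 5 kb on each side were compared for 9 protein-coding genes in range. Of these, 3 (33.3%) were higher in TFBS and 6 lower, and 1 (11.1%) was past 2-fold. The median log2 ratio over the 9 was -0.47, against 0.62 over the 10-kb windows tested, 0.03 over the 50-kb windows and 0.09 over the 10-kb windows that overlap a protein-coding gene. The medians over 10-kb windows leave out those without a WT read. Spans differ in length, so a gene is compared with itself between libraries only.

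Gata6 itself, over 27.0 kb in range of which 5 kb are flank, held 10.6% in TFBS (10.4% to 10.7%), 10.6% in CGI, 13.2% in TFBS+CGI and 13.6% in WT (13.4% to 13.8%). TFBS was lower than WT, with a log2 ratio of -0.36 (-0.39 to -0.33), on 107 fragments in TFBS and 73 in WT. The levels again paired TFBS with CGI. Gata6os, which lies antisense beside the Gata6 start, held 1.61% in TFBS and 1.28% in WT, a log2 ratio of 0.33 (0.24 to 0.42). Its 6.60 kb in range are mostly flank, 5 kb beyond the far end of the gene.

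On the left, Mib1, the gene of an E3 ligase acting on Notch ligands, held 4.22% in TFBS and 3.08% in WT. Its TFBS share was the highest of the 4 libraries, which ranged from 3.02% to 3.63% without it, and its fragments numbered 119 in TFBS and 55 in WT. Esco1, which encodes a cohesin acetyltransferase, held 1.12% in TFBS and 0.907% in WT. Lower in TFBS were Greb1l, at 2.67% in TFBS and 3.82% in WT, and Abhd3, a lipase-family gene, at 0.883% in TFBS and 1.23% in WT. Snrpd1, which encodes a core protein of the spliceosome, held 0.446% in TFBS and 0.655% in WT, and 1 fragment had 85.5% of its WT reads. In Abhd3 1 fragment had 57.8% of the WT reads.

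On the right, Rbbp8, which encodes the DNA end resection factor CtIP, held 2.29% in TFBS and 2.10% in WT, a log2 ratio of 0.13 (0.06 to 0.20). Cables1, which encodes a binding partner of cyclin-dependent kinases, was the gene past 2-fold. It held 1.47% in TFBS (1.41% to 1.52%), 1.54% in CGI, 1.05% in TFBS+CGI and 3.59% in WT (3.48% to 3.70%). The log2 ratio of TFBS over WT was -1.29 (-1.36 to -1.22), and the other libraries lay beside TFBS. With all fragments at matched depth the Cables1 ratio was -0.08 (-0.73 to 0.61), within counting error. Tmem241, whose span is cut by the range, held 0.598% in TFBS and 0.847% in WT.

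**Figure D5:**
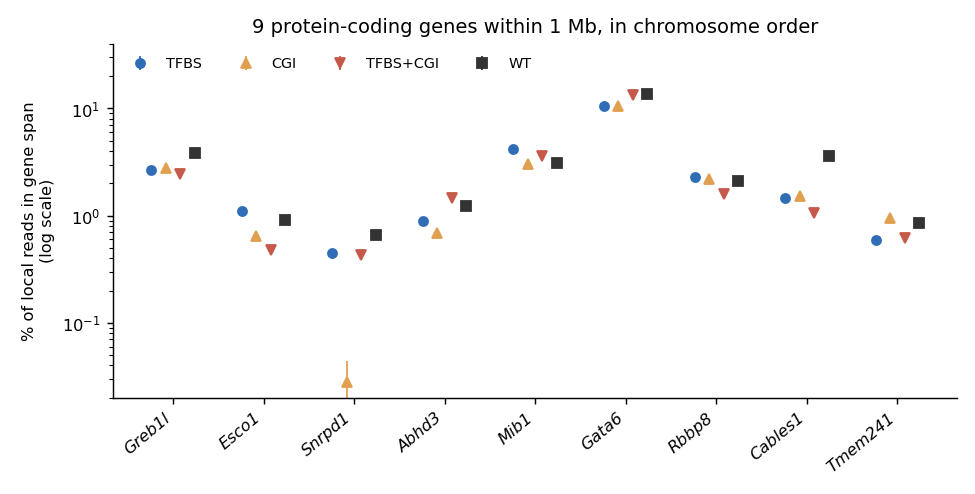
Percent of local reads over each gene span with 5 kb on each side (y axis, log scale) for 9 protein-coding genes within 1 Mb (x axis, chromosome order), in the TFBS, CGI, TFBS+CGI and WT libraries; bars are 95% Wilson intervals. Cables1 stands at 1.47% in TFBS and 3.59% in WT, the highest of the 4 libraries.

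Direction depended on the scale for all 6 genes that were lower. On the deposited RPM scale, in which values are relative to all reads of the library, which adds 2.00 to each log2 ratio since local reads were 6.44% of all reads in TFBS and 1.61% in WT, all 9 genes were higher in TFBS, and Cables1 was at 0.70 on the log2 scale and Gata6 at 1.64.

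The extreme 10-kb windows rested on few fragments. The largest log2 ratios were 7.70 (5.21 to 13.0) at 660 to 670 kb on the left, in Greb1l, with 362 reads in TFBS and 1 in WT, and 7.52 (5.03 to 12.8) at 800 to 810 kb on the right, in Cables1, with 320 reads in TFBS and 1 in WT. The others of the 5 largest were 7.24 at 580 to 590 kb, 7.23 at 490 to 500 kb and 7.20 at 380 to 390 kb, all on the left, over Greb1l and Abhd3. Another 7 of the 186 windows compared had no WT read at all. Set at 3 reads, the limit that a count of 0 allows, WT could hold up to 0.00271% there, and TFBS had 85 to 324 reads.

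The smallest log2 ratio was -8.31 (-9.37 to -7.42) at 540 to 550 kb on the left, in Greb1l, where TFBS had 10 reads on 3 fragments and WT 1815 on 2. It was -7.23 at 950 to 960 kb on the right, in Tmem241, and -6.07 at 500 to 510 kb on the left, in Greb1l, where 1 fragment held all 810 WT reads. The remaining ones were -5.23 at 880 to 890 kb on the right, in Cables1, and -5.02 at 640 to 650 kb on the left, in Greb1l. Neighbouring windows of Greb1l thus stood among both the largest and the smallest ratios.

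The tallest local fragments were not the same in the 2 libraries. In TFBS the tallest was at 11065173 to 11065310, 11.6 kb to the right in the Gata6 gene body, with 1680 reads in TFBS (0.869%) and 1308 in WT (1.18%). The next, at 11063763 to 11063933, had 1243 reads in TFBS and 6 in WT. At 29.1 kb to the left, the fifth had 898 reads in TFBS and 11 in WT. In WT the tallest was at 10874580 to 10874764, 179 kb to the left, with 144 reads in TFBS (0.0745%) and 2442 in WT (2.20%). The WT fragment at 10996176 to 10996354, 57.4 kb to the left, had 14 reads in TFBS, 0 in CGI, 0 in TFBS+CGI and 1756 in WT.

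Likeness of whole profiles was described by Spearman's rho over windows, which share the fall with distance and the positions of restriction sites. Over 197 windows of 10 kb, rho was 0.62 for TFBS and WT, 0.74 for TFBS and CGI, 0.73 for TFBS and TFBS+CGI, and 0.56 for WT with either of the other libraries. Over 82 windows from 100 to 510 kb, where distance weighs less, rho was 0.44 for TFBS and WT, 0.76 for TFBS and CGI, and 0.60 for TFBS and TFBS+CGI. Pairs without TFBS had 0.38 for WT and CGI, 0.51 for WT and TFBS+CGI, and 0.50 for CGI and TFBS+CGI. At 50 kb over all 40 windows rho was 0.79 for TFBS and WT, 0.78 for TFBS and CGI, and 0.84 for TFBS and TFBS+CGI, so the order of the pairs changed with the width. The pairs without TFBS had 0.74 for WT and CGI, 0.67 for WT and TFBS+CGI, and 0.72 for CGI and TFBS+CGI at that width.

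Reads from inserted PE Sox1 sequence would map to its original locus near Sox1, on chromosome 8. The fragment there with most TFBS reads, and the only one read within 20 kb on each side, was 12429908 to 12430215, 34.4 kb past the annotated start of Sox1. It had 175 reads in TFBS, 5 in CGI, 845 in TFBS+CGI and 1 in WT. It ranked 13 of the 769 fragments read on chromosome 8 in TFBS and 395 of 568 in WT. As a share of local reads, TFBS over WT was 6.65 on the log2 scale (4.15 to 12.0), against a single WT read. The fragment was chosen with these counts known, and its counts do not separate an inserted copy from the original one.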

How the data were processed

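Contacts were measured by 4C-seq with NlaIII as first and DpnII as second enzyme, per the labels' protocols. Per library the authors deposited 1 table of restriction fragments with values in RPM, per the file headers. The submitters' processing notes name HISAT2 and mm10, with no aligner version or read filter (not given in the sources used here). Every value (100%) was a whole multiple of the smallest value above 0 of the library within a tolerance of 0.1, so read counts were recovered from the deposited values by division. A count test needs replicates and was left out, as was any other test between libraries.

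Distances were taken between fragment midpoints. Windows started 10 kb from the viewpoint, and windows with at least 50 reads in TFBS and WT together were compared. Depth was matched by the expected number of fragments left when the deeper library is thinned, without random draws. Gene positions are those of RefSeq on GRCm38.p6, the assembly behind mm10. Windows named are the 5 highest in each library and the 5 with the largest and smallest log2 ratios, every 50-kb window past 2-fold, the windows from 60 to 160 kb on the right (chosen after their values were seen), and the protein-coding genes in range (1 is not reported here) with Gata6os; the 5 tallest fragments of each library are given in part. Stretches that join windows were also chosen after the values were seen. The members, windows and lists were chosen with earlier results of these data known. The rule for window calls was run on reads simulated from the TFBS profile, without PCR copies or a spread between libraries. That run checks the rule only and not the calls made here. Alternatives changed the scale, the range, the bases left out, tall and low fragments, window placement and the fold. The labels tie the libraries to no culture or batch. Python 3.11.15, numpy 2.4.6, pandas 2.3.3 and scipy 1.17.1 were used. Sequences of chromosome 18 are not printed.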

Additional observations from a re-analysis of the deposited data

How the results depend on the processing

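WT depth limits the far windows, many of which hold a few WT reads, and 1 library per condition limits every value: counting intervals say nothing of how a repeat would differ. No paired analysis was possible because each condition has 1 library. On the deposited RPM scale and as a share of all chromosome 18 reads, the left-side log2 ratio became 1.71 and 1.76 and the near share 1.83 and 1.88. The 10-kb windows numbered 149 and 150 higher and 10 and 10 lower, the 50-kb windows 34 and 35 higher and 0 and 0 lower, and all 9 genes were higher. On those scales Abhd3 was at 1.52 and 1.57, Cables1 at 0.70 and 0.75, Gata6 at 1.64 and 1.69, Greb1l at 1.48 and 1.53, Snrpd1 at 1.44 and 1.49 and Tmem241 at 1.496 and 1.54; the larger local part of all reads in TFBS gives these shifts by construction.

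With 25 kb left out, the left-side ratio was -0.31, the near share -0.15 and the difference in median distance (TFBS minus WT) 1.02 kb, against -3.10 kb as reported. With 500 kb on each side these were -0.37, -0.22 and 31.8 kb, and the cut end of Greb1l was at 5.80. The window counts were then 34 higher and 14 lower of 97 at 10 kb, and 3 and 1 of 20 at 50 kb. As reported they were 82 and 37 of 186, and 9 and 6 of 40, so the part past 2-fold was smaller too. Gata6 was at -0.85 with 25 kb left out and -0.41 with 500 kb on each side, against -0.36 as reported. With capped values the near share was -0.24 and the median difference 1.46 kb, and without the tallest fragment the left side was -0.24, the near share -0.22 and the median difference 12.7 kb. The sign of the median difference is therefore not stable. With fragments at matched depth the left side was -0.031, the median difference 18.9 kb, and the counts 14 higher and 7 lower at 10 kb and 0 and 0 at 50 kb. By that measure 7 genes were higher, with Abhd3 at 0.30, Greb1l at 0.31, Snrpd1 at 0.20 and Tmem241 at 0.42. Cables1 was at -0.08, Mib1 at 0.06, Esco1 at 0.02, Rbbp8 at 0.30 and Gata6 at -0.43. Every gene interval covered 0 there, and the cause was not tested. The limit said above for counts of all fragments at matched depth holds for these values too. With fragments of at least 10 reads, TFBS had 4.31 times as many as WT. That cut was made before depth was matched and is a smaller share of local reads in TFBS. At an equal share, the fixed one, TFBS had 3.91 times as many. Over fragments read in both, the near share was -0.053, the median difference -9.13 kb and Rbbp8 at -0.38. Abhd3 was at -1.17, Cables1 at -1.49, Greb1l at -0.89, Snrpd1 at -1.06 and Tmem241 at -1.53 there. Gata6 was at -0.13, Mib1 at 0.29 and Esco1 at 0.07. Of 40 windows of 50 kb, 8 were then higher and 9 lower, so their balance turned. At 1.5-fold, 14 windows of 50 kb were higher and 10 lower. The following settings were chosen after seeing the data. Without the tallest fragment of each window, 110 of the 152 windows of 10 kb still compared were higher and 12 lower. At 50 kb, 15 were higher and 1 lower. Totals were not rescaled for the fragments removed, which held a median of 37.2% of a 10-kb window in TFBS and 76.7% in WT. That setting therefore shifts windows towards TFBS by construction. With fragments above the fixed share, the left side was -0.12 and the near share -0.28. By that count 12 windows of 10 kb were higher and 29 lower, and 4 of 50 kb were higher and 2 lower. Those calls follow in part from the rule, as said above. The donor fragment ratio was 6.60 to 8.70 in the 6 alternatives run, which change its denominator only and so do not bear on its 175 and 1 reads.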
